A study of Daphnia magna with 12 samples.

Results

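Among 4318 probes measured on microarrays in whole Daphnia magna, a freshwater water flea used in toxicity testing, 98 probes (2.27%) were held at a lower level in every zinc exposure than in the unexposed animals measured with the same dye. Each value is read as the log2 ratio of 1 exposure sample over a zinc reference. That reference is a common RNA mixed from equal aliquots of the exposure groups. Log base and direction were inferred from the values, as described with the processing. The 98 were chosen on these ratios by 3 conditions. The mean of the 8 zinc arrays lay at least 0.4 below the mean of the 4 blank arrays. Within the arrays of each dye the highest of the 4 zinc values lay below the lower of the 2 blank values. The standard deviation (SD) over the 4 arrays was under 0.6 in each group. The size of the fall, the separation and the small spread are therefore what chose these probes, and they are given below as a description with no test.

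The groups were ZnO nanoparticles, the soluble salt ZnCl2 and no added zinc (blank), each with 4 replicate pools of 40 whole daphnids sampled at an age given as 96 hours. Exposure in ISO medium with algae as food lasted 96 h, with zinc at an EC10 (the concentration that affects 10% of animals, here by immobilisation) and a renewal of medium and spike at 48 h. Replicates 1 and 2 of each group carried the exposure sample in the dye Cy3 and the reference in Cy5, and replicates 3 and 4 the reverse. No strain name is in the labels used here. As animals were pooled whole, fewer cells of a type and less RNA per cell cannot be told apart.

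Zinc is an essential metal, a cofactor of many enzymes and of zinc-finger proteins, and in excess it is toxic to crustaceans. ZnO nanoparticles release zinc ions in water, so a particle and a salt can present animals with the same ion by different routes. Cells bind surplus zinc with metallothioneins, small cysteine-rich proteins, and move it with zinc transporters. A search of 28335 RefSeq genes of this species matched 0 of the 4318 probe names, so the probes go by those names and no gene, role or sequence is assigned to them. For the same reason no tissue marker could be checked.

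The mean ratio of the 98 probes was 0.33, 0.37, 0.38 and 0.51 on blank replicates 1 to 4. It was -0.21, -0.38, -0.27 and -0.07 on the ZnCl2 replicates and -0.40, -0.24, -0.09 and -0.39 on the ZnO replicates. Blank pools were thus above the reference and zinc pools below it, with ZnCl2 replicate 4 and ZnO replicate 3 closest to the reference among the zinc arrays. Both carried the exposure sample in Cy5. With the mean difference between the dyes removed they were at -0.12 and -0.14. ZnCl2 replicate 1 and ZnO replicate 2, both in Cy3, were then close to them at -0.15 and -0.19. The group means were 0.40 ± 0.08 in the blank, -0.23 ± 0.13 in ZnCl2 and -0.28 ± 0.15 in ZnO (SD, n = 4). On single blank arrays 86 to 95 of the 98 probes had a ratio above 0, and on single zinc arrays 7 to 41 did. That count was not made over all probes, whose array medians lay between -0.06 and 0.02. With a reference mixed from the same groups, the split follows largely from the choice of the probes and is a description.

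**Figure D1:**
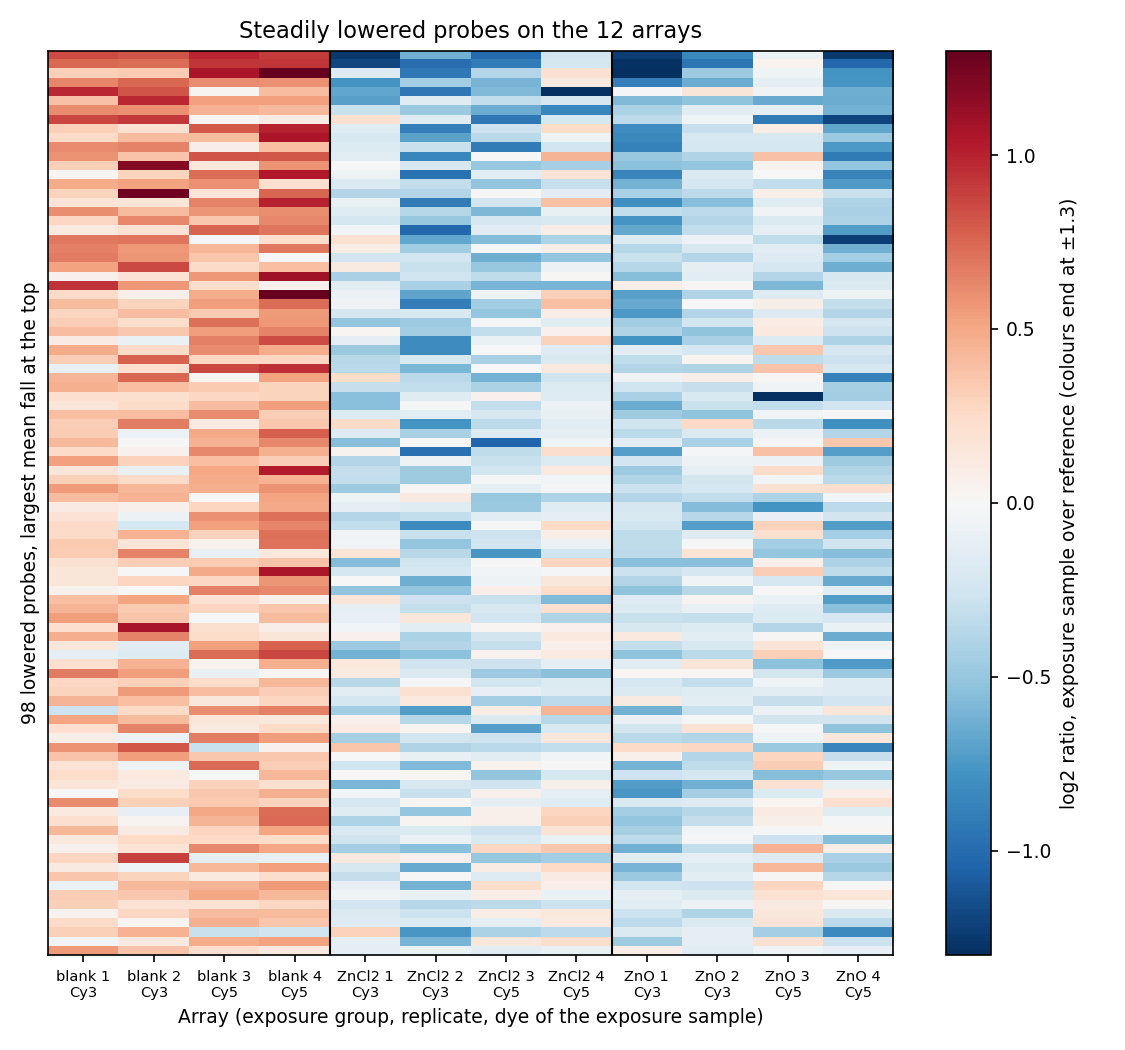
Log2 ratio of exposure sample over reference (colour) for the 98 lowered probes (rows, largest mean fall at the top) on the 12 arrays (columns, grouped by exposure, with the dye of the exposure sample). Blank arrays are mostly red and zinc arrays mostly blue, with the palest zinc columns at ZnCl2 replicate 4 and ZnO replicate 3.

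The falls were modest. The median mean change, zinc minus blank, was -0.59 on the log2 scale, a 1.51-fold lower level, and the range was -1.71 to -0.40. At least 2-fold falls numbered 6, falls between 1.5-fold and 2-fold numbered 47, and 45 were smaller. Over all probes the median change was -0.0029. With the signs of the rule turned, 206 probes were steadily raised.

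The deepest fall was that of DM12298P2, whose ratios were 0.85, 0.81, 0.99 and 0.91 in blank replicates 1 to 4. They were -1.25, -0.62, -1.01 and -0.25 in the ZnCl2 replicates, and -1.22, -0.84, -0.09 and -1.26 in the ZnO replicates. The blanks lay within a narrow band, and all 8 zinc values lay below 0, those of ZnCl2 replicate 4 and ZnO replicate 3 the least so. The mean went from 0.89 ± 0.08 in the blank to -0.78 ± 0.44 in ZnCl2 and -0.85 ± 0.54 in ZnO (SD, n = 4), a 3.26-fold fall over both forms.

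DM05996P3 fell 3.13-fold, with the same 2 zinc arrays closest to the blank. Its blank values were 0.74, 0.72, 0.93 and 0.93, its ZnCl2 values -1.18, -0.99, -0.91 and -0.22, and its ZnO values -1.28, -0.94, 0.05 and -1.02. DM12344P3 fell 2.24-fold, from 0.63, 0.75, 0.62 and 0.59 in the blanks to -0.78, -0.44, -0.60 and 0.11 in ZnCl2 and -0.89, -0.65, -0.13 and -0.77 in ZnO. In all 3 probes every zinc array lay below every blank array, and the highest zinc arrays were again ZnCl2 replicate 4 and ZnO replicate 3. The fall of each was larger in the Cy3 than in the Cy5 arrays, at -1.82 and -1.60 for DM12298P2, -1.83 and -1.46 for DM05996P3 and -1.38 and -0.95 for DM12344P3.

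DM04001P1, which fell 2.39-fold, differed from these in its blanks and in its lowest ZnCl2 array. Its blank values were 0.31, 0.33, 1.06 and 1.36, its ZnCl2 values -0.17, -0.93, -0.38 and 0.20, and its ZnO values -1.37, -0.48, -0.05 and -0.77. The Cy5 blanks stood well above the Cy3 blanks, and the lowest ZnCl2 array was replicate 2 in place of replicate 1. ZnO replicate 1 was the lowest ZnO array, as in DM05996P3 and DM12344P3. ZnCl2 replicate 4 and ZnO replicate 3 were again the highest of their groups. DM01917P1 had the same form, with blank values of 0.31, 0.20, 0.79 and 1.00, ZnCl2 values of -0.16, -0.89, -0.26 and 0.24, and ZnO values of -0.81, -0.30, 0.10 and -0.67. In DM01917P1 ZnCl2 replicate 4 (0.24) exceeded blank replicate 2 (0.20), so its groups were apart within each dye but overlapped across dyes. DM07367P1 fell 1.88-fold, from 0.25, 0.41, 0.42 and 1.05 to -0.20, -0.70, -0.35 and -0.06 in ZnCl2 and -0.84, -0.21, -0.21 and -0.49 in ZnO, and its zinc and blank arrays did not overlap.

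DM08122P1 was steadier among the nanoparticle pools than elsewhere. Its ZnO values were -0.57, -0.53, -0.66 and -0.65, against -0.71, -0.16, -0.32 and -0.22 in ZnCl2 and 0.38, 0.98, 0.53 and 0.54 in the blank. Means were 0.61 ± 0.26 in the blank, -0.35 ± 0.25 in ZnCl2 and -0.60 ± 0.06 in ZnO (SD, n = 4), and no zinc array reached the lowest blank. DM12598P3, with blank values of 0.61, 0.59, 0.45 and 0.43, went to -0.29, -0.48, -0.64 and -0.85 in ZnCl2 and to -0.42, -0.13, -0.12 and -0.62 in ZnO. Its 2 zinc groups overlapped each other and neither overlapped the blank.

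**Figure D2:**
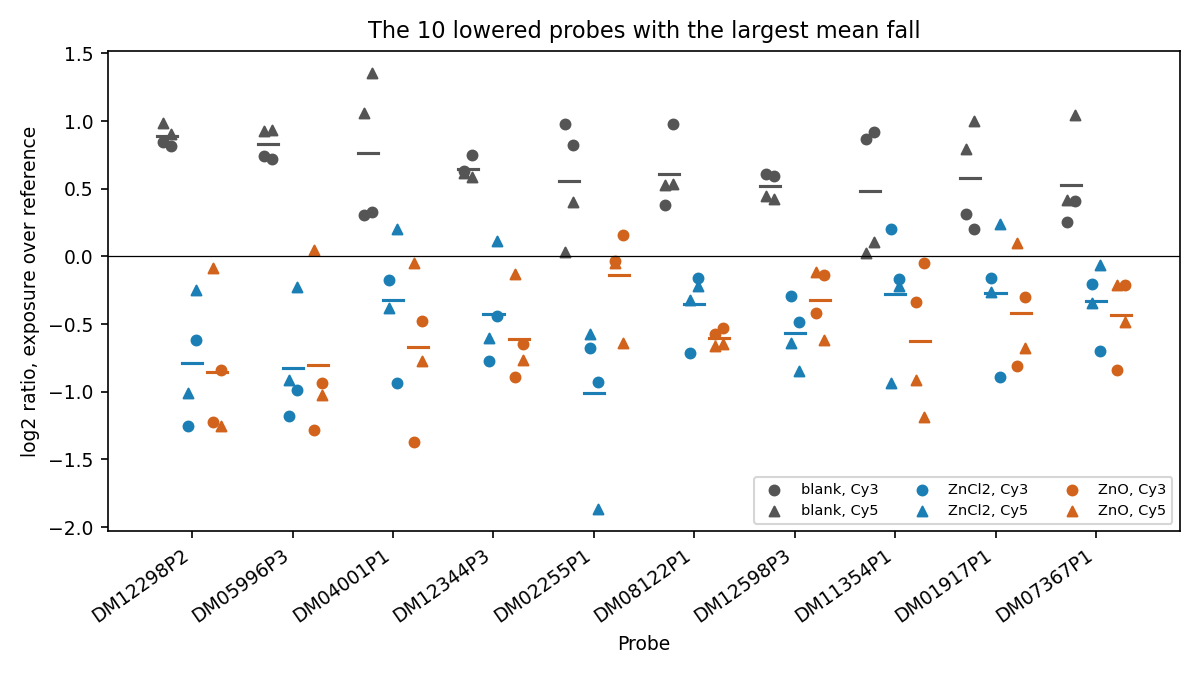
Log2 ratio of exposure over reference (vertical axis) of the 10 probes with the largest mean fall, 1 point per array, circles for Cy3 and triangles for Cy5, with a line at each group mean. The zinc values lie below the blank values of the same dye in all 10 probes, and in DM11354P1 the Cy5 blanks (0.02 and 0.11) lie under the Cy3 ZnCl2 value of 0.21.

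The steadiest members were small in effect, apart from DM00802P3. That probe had blank values of 0.46, 0.39, 0.34 and 0.29, ZnCl2 values of -0.29, -0.32, -0.41 and -0.18, and ZnO values of -0.26, -0.30, -0.05 and -0.43. Its pooled SD within groups was 0.12 and its fall 1.57-fold. DM08720P2 had the lowest pooled SD of the 98, at 0.08, against a median of 0.29 and a highest of 0.52. DM03267P2, DM02778P3 and DM10438P1 had pooled SDs of 0.11, 0.12 and 0.12 and fell 1.42-fold, 1.41-fold and 1.32-fold, and in all 5 of these probes the 8 zinc values lay below the 4 blank values.

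That full separation held for 49 of the 98 probes, against 2.41% of all probes. The other 49 had zinc and blank values that overlapped across dyes and were apart only within each dye. This share follows from the rule and is a description of how many members do not depend on matching the dye.

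At the edge of the rule, DM10438P1, DM02410P1 and DM08829P2 lay just inside with mean changes of -0.40 each. DM08083P1, DM06590P3 and DM06849P1 met the other conditions and lay just outside, at -0.397, -0.396 and -0.395. The SD limit removed more probes than it kept. Of 207 probes that met the first 2 conditions, 109 had an SD of 0.6 or more in at least 1 group, most often in ZnCl2 (98 probes) or ZnO (91 probes) and less often in the blank (38 probes). These 109 had a median change of -1.41, larger than the -0.59 of the members, and a median largest group SD of 1.17. DM02255P1 had the largest group SD within the limit, at 0.591, and DM12798P2 the smallest outside it, at 0.613.

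The conditions used both dye orientations, so each orientation was also used alone, as a choice that the other 6 arrays had no part in. A mean change of -0.4 or lower with separated values in the Cy3 arrays was met by 337 probes. Of these, 174 (51.6%) met the same conditions in the Cy5 arrays, where 6.74% of all probes did. Starting from the Cy5 arrays, 174 of 291 probes (59.8%) met the conditions in the Cy3 arrays, where 7.8% of all probes did. The median change of the 337 was -0.74 in the Cy3 arrays that chose them and -0.63 in the Cy5 arrays that did not, and 96.1% lay below 0 there, against 49.4% of all probes. For the 291 it was -0.80 where they were chosen and -0.72 in the other orientation. All arrays share the reference, and nothing says that the pools came from separate cultures, so this compares pools of 1 experiment. Members made up only 85 of the 337 and 82 of the 291, so most of the chosen probes lay outside the set. The shares and medians above describe these wider choices and are no test of the members.

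Within the 98, the median change was -0.58 in the Cy3 arrays (range -1.83 to -0.30) and -0.62 in the Cy5 arrays (range -1.60 to -0.23). The fall was larger in Cy3 for 52 probes and larger in Cy5 for 46.

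Against the blank, the fit placed all 98 probes below 0 with either form. The median change was -0.61 with ZnO (range -1.74 to -0.26) and -0.56 with ZnCl2 (range -1.67 to -0.35). In limma, a linear model fitted per probe over all 12 arrays with a dye term, 69 of the 98 passed a Benjamini-Hochberg adjusted p of 0.05 as lower in ZnO, against 3.13% of all probes, and 56 as lower in ZnCl2, against 2.34%. Both comparisons called 51 probes (1.46% of all probes were called lower in both), and neither called 24. These contrasts chose the probes and share the 4 blanks, so nothing is read from these counts. Leaving out 1 array gave 42 to 79 called members with ZnO, with 42 without ZnO replicate 1 and 43 without blank replicate 4, and 37 to 64 with ZnCl2, with 37 without ZnCl2 replicate 3. With no dye term it gave 31 and 33. Without blank replicate 2, ZnCl2 replicate 2 and ZnO replicate 4, the arrays of largest residual in their groups, it was 37 and 39. Lower calls over all probes, 135 with ZnO and 101 with ZnCl2, moved under the same settings. With ZnO they were 55 without ZnO replicate 1 and 59 without blank replicate 4. With ZnCl2 they were 51 without ZnCl2 replicate 3. With no dye term they were 46 and 41, and without the arrays of largest residual 59 and 53. The moves are therefore not read as particular to the members.

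The mean change of both forms against the blank does not fix the difference between them, which is the comparison the rule used least, though its limits on spread and separation bear on it. No member passed the limma threshold for ZnO against ZnCl2, and none of all 4318 probes did (0% called). At an unadjusted limma p under 0.05 there were 3 members (3.06%), against 5.7% of all probes. The fitted difference, ZnO minus ZnCl2, had a median of -0.06 over the members, with 63 below 0 and 35 above, and a median of -0.02 over all probes, of which 55.8% lay below 0. The range over the members was -0.39 to 0.87, and the median half-width of the 95% interval was 0.31.

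For 79 of the 98 probes (80.6%) this interval lay within a 1.5-fold difference in either direction, against 78.7% of all probes, and for 97 (99.0%) it lay within 2-fold, against 90.4%. The SD limit of the rule itself narrows the members' intervals. For the deepest probes the intervals were wider. DM12298P2 differed by -0.07 (95% interval -0.64 to 0.50), DM05996P3 by 0.03 (-0.47 to 0.53) and DM12344P3 by -0.18 (-0.60 to 0.24). Differences within those bounds are not excluded by these arrays.

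**Figure D3:**
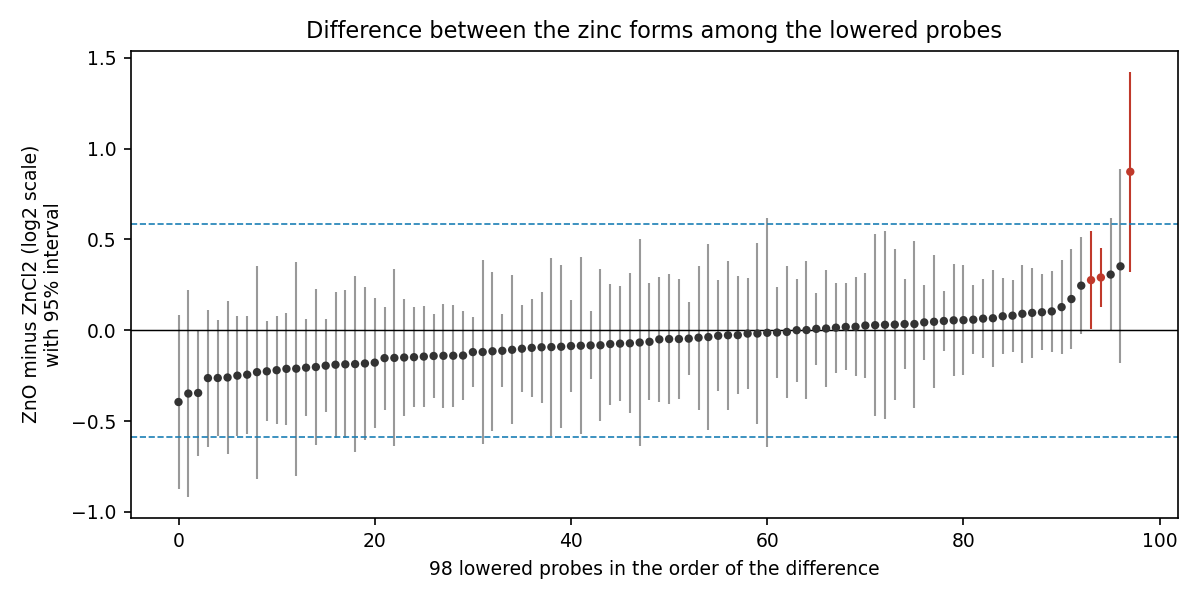
Fitted difference ZnO minus ZnCl2 on the log2 scale (points) with its 95% interval (lines) for the 98 lowered probes in the order of the difference, with dashed lines at a 1.5-fold difference. The 3 probes in red had an unadjusted p under 0.05 and did not pass after adjustment, and 79 intervals lie between the dashed lines.

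DM02255P1 was the member furthest apart between the forms. Its ratios were 0.98, 0.82, 0.04 and 0.40 in the blanks, -0.68, -0.93, -0.57 and -1.87 in ZnCl2, and -0.03, 0.16, -0.05 and -0.64 in ZnO. All ZnO arrays but replicate 4 lay above all ZnCl2 arrays, and ZnCl2 replicate 4 was far the lowest. ZnO exceeded ZnCl2 by 0.87 (95% interval 0.32 to 1.42, limma adjusted p = 0.79), by 0.87 in the Cy3 arrays and by 0.88 in the Cy5 arrays, and by 0.65 without ZnCl2 replicate 4.

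DM08720P2 was smaller in its difference but cleaner. Its blank values were 0.31, 0.19, 0.19 and 0.27, its ZnCl2 values -0.25, -0.37, -0.34 and -0.28, and its ZnO values -0.13, -0.08, 0.12 and 0.01. The 3 groups did not overlap, with ZnO between the salt and the blank. The difference between the forms was 0.29 (95% interval 0.13 to 0.45), the smallest p among the members (limma adjusted p = 0.71), and it did not pass the threshold. DM04155P3 was the remaining probe with an unadjusted p under 0.05, with ZnO above ZnCl2 by 0.28 (95% interval 0.0062 to 0.55, limma adjusted p = 0.84), and was named for that after its values were seen. Its blank values were 0.94, 0.57, 0.23 and 0.05, its ZnCl2 values -0.15, -0.42, -0.60 and -0.60, and its ZnO values 0.09, 0.02, -0.58 and -0.19, so the 2 zinc groups overlapped.

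Further probes at the ends of this order were less certain. DM12622P1 and DM02371P2 were higher in ZnO by 0.35 (95% interval -0.18 to 0.89) and 0.31 (-0.0066 to 0.62). On the other side DM10268P2 was lower in ZnO by a difference of -0.39 (-0.88 to 0.09), DM04001P1 by -0.35 (-0.92 to 0.22) and DM11354P1 by -0.35 (-0.69 to 0.0032). The size of the difference in DM10268P2 depended on ZnO replicate 3, without which it was -0.14. Its ZnO values were -0.42, -0.20, -1.31 and -0.45, its ZnCl2 values -0.55, -0.15, 0.06 and -0.17, and within the Cy3 arrays its difference was 0.040. For DM12622P1 the difference was -0.0052 within the Cy3 arrays.

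A difference between the dye orientations was not part of the rule, which compares arrays of 1 dye at a time. The SD limit bounds its size. Replicates 1 and 2 of every group were in Cy3 and replicates 3 and 4 in Cy5. An effect of labelling therefore cannot be told apart from any other difference between those replicates. The dye term, the ratio with the exposure sample in Cy5 minus that in Cy3, passed the limma threshold for 35 of the 98 probes (35.7%), against 36.7% of all probes. Its direction differed from that of the whole array. Of the members 27 were higher in Cy5 and 8 higher in Cy3, while 14.8% of all probes were called higher in Cy5 and 22% higher in Cy3. The median dye term was 0.14 over the members and -0.03 over all probes. No test of this difference in direction was made, since the members share arrays.

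The most positive dye terms were those of DM02401P2, at 0.73 (95% interval 0.55 to 0.91, limma adjusted p = 0.00011), and DM07133P1, at 0.67 (0.46 to 0.87, limma adjusted p = 0.00038). DM02401P2 had blank values of -0.13, -0.17, 0.72 and 0.87, ZnCl2 values of -0.61, -0.53, 0.05 and 0.12, and ZnO values of -0.52, -0.35, 0.31 and 0.00. In each group the Cy5 pair (replicates 3 and 4) lay above the Cy3 pair, and the Cy3 blanks lay under every Cy5 zinc value, so that only within a dye did zinc stand below the blank. At the other end, DM11354P1 had a dye term of -0.76 (-1.05 to -0.48, limma adjusted p = 0.0012), with blank values of 0.87, 0.92, 0.02 and 0.11. Its ZnCl2 values were 0.21, -0.16, -0.93 and -0.22 and its ZnO values -0.34, -0.05, -0.92 and -1.19. DM12073P1 had a dye term of -0.69 (-1.02 to -0.35, limma adjusted p = 0.0054). The dye term was larger in size than the zinc change in DM02401P2, DM07133P1 and DM12073P1, whose mean changes were -0.51, -0.44 and -0.48. It was smaller than the zinc change in DM11354P1, which was -0.93.

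The rule itself sets no level of the probes against the reference, since it uses only differences between arrays. With a reference mixed evenly from the 3 groups, a probe lowered in both zinc groups should lie above the reference in the blank by more than it lies below it in the zinc groups. The median blank ratio of the members was 0.38, where the mixture gives 0.35, and the median zinc ratio was -0.23, where it gives -0.24. The log scale of the table was itself inferred from this property over all probes, so these values are a description. The offset from the mixture was under 0.1 in size for 87 of the 98 probes (88.8%), against 89.8% of all probes, and ranged from -0.18 for DM08829P2 to 0.15. DM08829P2 had ratios of 0.31, 0.45, -0.29 and -0.25 in the blanks, and its Cy5 blanks lay below the reference although no Cy5 zinc array exceeded them.

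**Figure D4:**
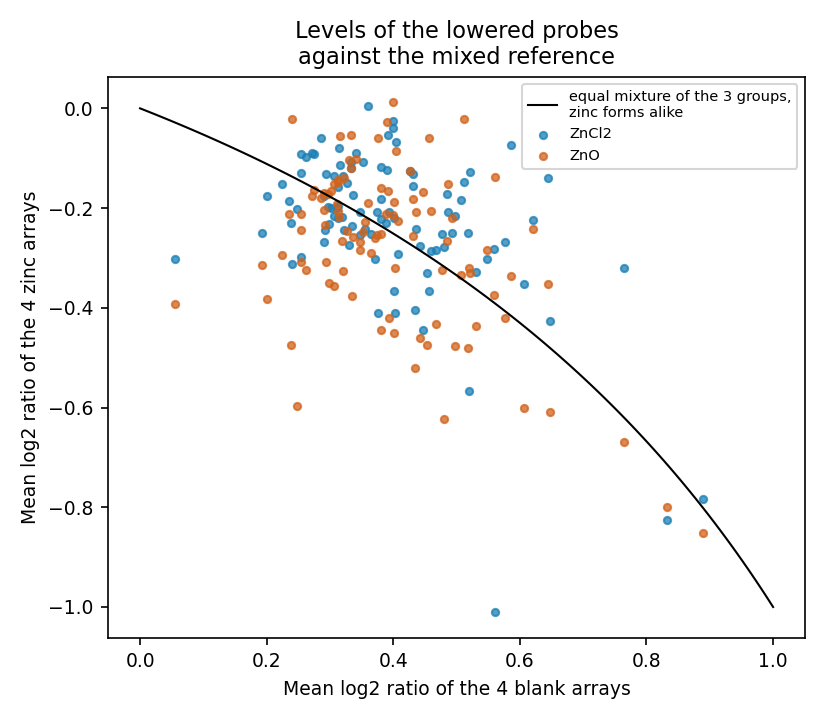
Mean log2 ratio of the 4 zinc arrays (vertical axis, ZnCl2 in blue and ZnO in orange) against that of the 4 blank arrays (horizontal axis) for the 98 lowered probes, each probe shown once per zinc form. The line is the position given by an equal mixture of the 3 groups with both zinc forms alike, and the points lie on both sides of it.

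Array-to-array variation within groups was partly common to the members, as it was to the other probes. After group means and dye term were removed, 1 component held 44.9% of their residual variance, against 40.0% for the first component of all other probes. Weights had the same sign in 78 of the 98, a count not made for the other probes, so it is not read as particular to the members. The lowest arrays of the members' component were ZnO replicate 4 (-0.53) and ZnCl2 replicate 2 (-0.44), and its highest were ZnO replicate 3 (0.38) and ZnCl2 replicate 1 (0.32). The component of the other probes had nearly the same shape, with -0.44 and -0.61 on ZnO replicate 4 and ZnCl2 replicate 2 and a cosine of 0.93 with that of the members over the 12 arrays. The blanks took little part, with weights of -0.11 to 0.15 among the members. The members thus share part of their array-to-array variation and are not independent of each other.

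**Figure D5:**
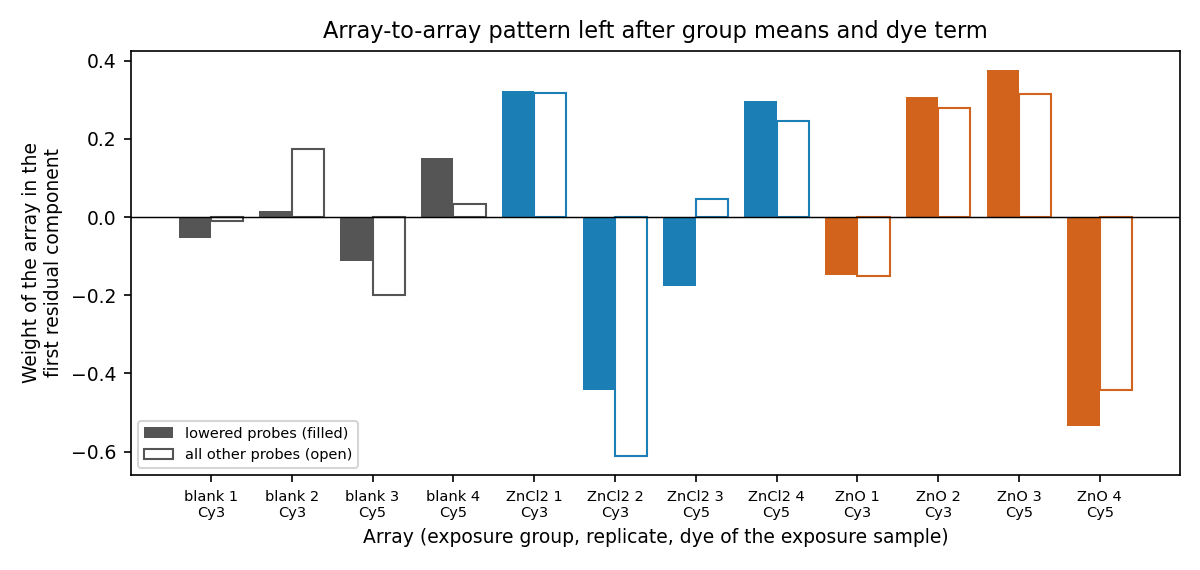
Weight of each of the 12 arrays (horizontal axis) in the first residual component (vertical axis, no unit) of the 98 lowered probes (filled bars) and of all other probes (open bars), coloured by exposure group. Both sets dip at ZnCl2 replicate 2 and ZnO replicate 4 and rise at ZnCl2 replicates 1 and 4 and ZnO replicates 2 and 3.

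When probes were counted singly, the extreme arrays were the same in part. These counts use the ratios with the difference between the dyes left in, while the component had it removed. The median dye term was 0.14 over the members and -0.03 over all probes, so the share of all probes does not adjust for it. The part of the dye in these counts was not tested. ZnCl2 replicate 2 was the lowest ZnCl2 array for 43 of the 98 probes (43.9%), against 25% of all probes, and ZnCl2 replicate 4 the highest for 49 (50.0%), against 25.1%. ZnO replicate 1 was the lowest ZnO array for 41 (41.8%, against 23.6% of all probes) and ZnO replicate 3 the highest for 55 (56.1%, against 27.5%). ZnO replicate 4, the lowest array of the component, was the lowest ZnO array for 33 (33.7%), close to the 31.0% of all probes. The 109 probes left out for their spread had the same 3 zinc arrays lowest, in another order and at a larger size. They averaged -2.35 on ZnCl2 replicate 2, -1.44 on ZnO replicate 1 and -1.77 on ZnO replicate 4, and -0.41 to 0.12 on the other 5 zinc arrays. The corresponding values of the members were -0.38, -0.40 and -0.39 on those 3 arrays and -0.27 to -0.07 on the other 5. With the mean difference between the dyes removed, the members were at -0.33, -0.35 and -0.44, and at -0.32 to -0.12 on the other 5. ZnCl2 replicate 3, at -0.32, was then close to ZnCl2 replicate 2. The 109 probes were then at -2.08, -1.17 and -2.04, and at -0.68 to 0.15 on the other 5. The part of this common variation in the falls was not tested. On the arrays left without blank replicate 2, ZnCl2 replicate 2 and ZnO replicate 4, the rule found 120 probes, of which 78 were among the 98. The members' own falls on any of these arrays are set by the separation the rule asks for, so they bear nothing on this.

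By likeness to the mean profile of the 98 over the 12 arrays, the leading probes were DM05996P3 (Pearson r = 0.97), DM08098P2 (r = 0.96), DM01744P1 (r = 0.96), DM12298P2 (r = 0.95) and DM01611P2 (r = 0.95), all members. The correlations describe 12 arrays that fall into groups, and each of these probes is part of the mean. DM01744P1 had blank values of 0.60, 0.42, 0.58 and 0.60, ZnCl2 values of -0.15, -0.37, -0.59 and -0.10, and ZnO values of -0.32, -0.34, -0.05 and -0.42. It fell 1.79-fold with no overlap between zinc and blank arrays. DM08098P2 fell 1.77-fold, with blank values of 0.27, 0.63, 0.35 and 0.62, ZnCl2 values of -0.23, -0.49, -0.22 and -0.20 and ZnO values of -0.76, -0.38, -0.19 and -0.40, again without overlap. DM01611P2 fell 1.52-fold. The median r over the members was 0.81 and the lowest 0.43, and 72 probes outside the 98 had an r over that median.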

How the data were processed

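The authors deposited 1 value per probe and array, read here as a log2 ratio, for 4318 probes and 12 arrays. Per the submitters' processing notes limma was used (no version). No label or header used here describes background correction, normalization, a filter on probes or signal over background. Array medians lay between -0.06 and 0.02. Direction and log base are not stated in the table and stay inferred: over all probes, the ratios were regressed on those an even mixture would give, and the slope was 0.98 when read as log2 (exposure over reference), 0.72 as natural log, 0.38 as log10 and -0.68 with the direction turned. Zinc minus blank in Cy3 correlated with that in Cy5 at 0.66 across probes, so the columns were taken as turned 1 way. Of array pairs with the same dye, ZnO replicate 1 and blank replicate 2 correlated lowest, at -0.32. That direction was kept, because the dyes are labelled and an exposed and a blank pool can oppose each other. On single arrays 334 to 1370 values, 3 to 31 of them in the 98 probes, were exactly shared with another probe.

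The ratios were fitted in limma 3.58.1 (R 4.3.3, lmFit and eBayes) over all 12 arrays, with group means plus 1 dye coefficient. P-values are two-sided, adjusted over all 4318 probes, and rest on the spread among replicate pools, which may be technical. Precision is limited by how few arrays there are. The fitting script was tested on simulated data first. After group means and dye term were removed, same-numbered arrays mostly did not vary together (1 of 12 pairs over 0.1), so no pairing was fitted. Removing those terms itself lowers such correlations, so this is a weak check and a pairing is not excluded. Alternatives varied the dye term, orientation, block, centring, scale, prior, weights, thresholds and arrays.

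The members, the rules and the lists were chosen with earlier results of these data known. Named probes are the 10 largest falls, the 5 lowest pooled SDs and 3 at either end of ZnO minus ZnCl2. Also chosen for naming were 3 just inside the limit on the mean change and 3 just outside each limit. The rest are 2 at either end of the dye term and the 5 most like the mean profile. Of the probes just over the SD limit only the nearest is given. Probes sharing a number were to be named, but no number is held by over 1 probe, and gene lists could not be used because no probe has a gene name here.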

Additional observations from a re-analysis of the deposited data

Results flagged for a closer look

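Among 81 groups of 4 arrays examined for the named probes and for the mean of the 98, 5 had an extreme array with a wide gap to the others. The limit used flags about 1 in 20 groups (4.05 here) when all values come from a single normal distribution. These groups mix both dyes, and some probes were named for their spread or dye term, so 4.05 is not their expected count. DM02778P3 was at 0.20 on ZnCl2 replicate 2 and between -0.16 and -0.10 on the other ZnCl2 arrays. DM02371P2 was at 0.35 on ZnO replicate 3, against -0.23 to -0.14. DM12073P1 was at 0.36 on ZnCl2 replicate 1, against -0.39 to -0.32. DM08098P2 was at -0.49 on ZnCl2 replicate 2, against -0.23 to -0.20. DM01744P1 was at 0.42 on blank replicate 2, against 0.58 to 0.60. The SD limit of the rule bounds how far an array of a member can stand apart.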

How the results depend on the processing

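The rule found 98 probes, 61 with an SD under 0.4, 207 with no SD limit, 49 with all zinc arrays below all blank arrays, and 90 to 127 without single arrays. Lower calls over all probes, ZnO (135) first and ZnCl2 (101) second, became 46 and 41 when the dye term was dropped, 6 and 10 on the Cy3 arrays, 3 and 1 on the Cy5 arrays (2 against 2), and 207 and 166 with array weights. Relaxing the threshold to 0.1 gave 298 and 193, and asking for a 1.5-fold fall as well gave 81 and 44. Without single arrays they were 55 to 210 and 51 to 121. For ZnO the count was 55 without ZnO replicate 1, 59, 76 and 89 without blank replicates 4, 1 and 2, and 210 without ZnCl2 replicate 2. For ZnCl2 it was 51 and 64 without ZnCl2 replicates 3 and 2, and 54 and 59 without blank replicates 1 and 4. Without the 3 arrays of largest residual, added after seeing the data, it was 59 and 53. The cause of these moves was not tested. ZnO against ZnCl2 gave 0 calls in every alternative run. The median ZnO minus ZnCl2 over the members (-0.06) ran from -0.13 to 0.012 without single arrays, and was above 0 only without ZnO replicate 4. The replicate block gave 94, 68 and 0, and same-numbered residuals correlated between -0.62 and 0.45, with 1 of 12 arrays matching best with its own number. Probes lowered in both orientations (174) numbered 149 and 215 at cut-offs of -0.5 and -0.3, added after seeing the data. Of 1286 refits of named probe values, 1278 kept direction and call or stayed within 1 SD, 6 moved further, and 2 changed sign, both ZnO minus ZnCl2 in Cy3 alone: DM10268P2 (0.040) and DM12622P1 (-0.0052). Part of the 1278 could not change the size of a difference. In this balanced design a difference between groups stays the same with no dye term, the replicate block or the robust prior. It also stays the same without an array of the group not compared, so the count is no measure of stability.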
